A study of Mus musculus with 6 samples.

Results

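The 10 genes described here encode AP-1 and early growth response transcription factors. They were chosen by name, with earlier results of these data known, as the listed Fos genes (Fos, Fosb, Fosl1, Fosl2), the Jun genes (Jun, Junb, Jund), Atf3, Egr1 and Egr2, and they are 10 of the 41126 genes in the all-gene table. All 10 passed the filter on low fragment counts and were among the 15462 genes tested. RNA-seq was performed on 6 cultures of ventral dermal fibroblasts from mice of a mixed CD1 and C57Bl6 background at postnatal day 4. The 3 control cultures were infected with an adenovirus encoding GFP (AdGFP), and the 3 GOF (gain of function) cultures with an adenovirus encoding Cre recombinase (AdCre). Cre removed exon 3 of Ctnnb1 from 1 allele (Ctnnb1 Δex3/+), which leaves a β-catenin protein that escapes degradation and keeps the Wnt pathway active. The labels give the control genotype as +/+, whereas the study's methods describe the same floxed allele in cells that received AdGFP, and the treatment label names AdCre at 366 to 500 MOI (infectious units per cell) for every culture. The groups follow the source label, by which the virus differed between them together with β-catenin, and their parts cannot be told apart. Every culture was grown in medium with fetal bovine serum and infected in serum-free medium. The treatment label gives 6 hours for every culture. The paper states that RNA was isolated days after infection, so the levels are not those of the first minutes or hours. Cultures were primary cells grown from individual animals, 4 in all. Control 0 and GOF 2 came from the same animal, and so did control 2 and GOF 0, so 2 animals are in both groups. Control 0 and control 2 thus each shared a genotype before infection with a GOF culture, which the +/+ label does not match.

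AP-1 is a dimer of leucine zipper proteins. Fos proteins do not pair stably with each other and bind DNA mainly with a Jun partner. Jun proteins can also pair among themselves, and Atf3 can join a Jun protein or pair with itself. Egr proteins are zinc finger factors that bind GC-rich sites. Many of these genes are immediate early genes: within minutes of serum, growth factor or stress signals, MAP kinases act on the serum response factor SRF, on its Elk partners and on Jun itself, and transcription begins without new protein being made. In fibroblasts AP-1 is best known for driving matrix proteases and growth genes.

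SRF recognises a short AT-rich element, the CArG box, which lies upstream of several immediate early genes. The RefSeq promoter table on GRCm38.p6 held 8 of the 10 genes, all but Fosl1 and Egr1, and the 500 bases upstream of their start sites were searched on both strands for 5 motifs: the AP-1 element TGACTCA, the cAMP response element TGACGTCA, the CArG box, the TCF/LEF element CTTTGAT and the Egr element GCGTGGGCG. None of these motifs contains another. Among the 8 genes only the CArG box was found, in Fos, Fosb and Egr2, and its sites are printed with their flanks because they were the only matches. The Jund start site searched, chr8:70697739, lies upstream of the gene start given below, 70698949. That of Atf3, chr1:191183333, lies inside the gene, which runs to 191218039. The bases next to these gene ends were not searched. Of all 32851 upstream windows, 2.75% held a CArG box, 8.12% TGACTCA, 1.93% TGACGTCA, 6.8% CTTTGAT and 0.788% GCGTGGGCG. The matches are letters in the reference sequence and not measured binding. Capitals mark the CArG box. The Fos sequence is chr12:85473551-85473620 on the + strand, with the box 309 to 300 bases before the start site. The Fosb sequence is chr7:19310278-19310347 on the - strand, with the box 272 to 263 bases before the start site. The Egr2 sequences are chr10:67537484-67537513 and chr10:67537787-67537816 on the + strand, each with its box 72 to 63 bases before a different start site. The second overlaps an exon of a RefSeq transcript. These start sites are 67537566 and 67537869, labelled below upstream and downstream relative to each other. Other Egr2 start sites were searched too, and the most upstream, 67535499, had no match in its window.
Fos: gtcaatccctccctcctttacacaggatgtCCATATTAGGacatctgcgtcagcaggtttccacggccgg
Fosb: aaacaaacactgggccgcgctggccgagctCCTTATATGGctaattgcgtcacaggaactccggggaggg
Egr2, upstream start: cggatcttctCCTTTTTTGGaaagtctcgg
Egr2, downstream start: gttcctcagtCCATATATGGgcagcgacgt

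The libraries held between 35980831 and 42834467 fragments in the all-gene table. Axin2, a direct β-catenin target used here as the check of the labels, lay between 0.136 and 0.177 FPKM (fragments per kilobase of transcript, scaled for sequencing depth) in the controls and between 14.4 and 19.2 FPKM in GOF, so no library went against its label. Among markers of cell types, all 10 fibroblast genes had a mean of at least 1 FPKM, and they summed to 3216 to 4086 FPKM in the controls and 2614 to 3223 FPKM in GOF, with 2 called lower. None of 8 keratinocyte and none of 4 adipocyte markers reached that mean, and Krt14, Krt1 and Dsg3 had at most 3 fragments in any library. The 6 skeletal muscle markers summed to 23.3 to 27.6 FPKM in the controls and 138 to 173 FPKM in GOF; Acta1 was the member called higher, and Myod1 and Ckm had at most 3 fragments in any library. The 7 macrophage markers summed to 13.4 to 23.2 and 10.3 to 29.2 FPKM, in controls and GOF, with 1 marker called higher. Of these, 4 had a mean of at least 1 FPKM. Their highest values in any library were 17.3 FPKM for Lyz2, 4.79 for Csf1r, 3.82 for Cd14 and 2.58 for Cd68. Fcer1g (0.503 FPKM), Adgre1 (0.12) and the leukocyte marker Ptprc (0.0862) stayed lower. The 6 endothelial markers summed to 4.38 to 4.5 and 2.71 to 6.59 FPKM (1 called higher and 1 lower), the 5 melanocyte markers to 5.8 to 12.4 and 2.99 to 7.09 FPKM (1 called lower), and the 4 Schwann cell markers to 0.822 to 4.66 and 0.904 to 4.26 FPKM. A mean of at least 1 FPKM was reached by 3 endothelial, 2 melanocyte and 1 of the Schwann cell markers. Whether the cells behind these markers had a part in the results below was not tested.

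Of the factors, 5 changed in GOF fibroblasts, and they did not move in 1 direction. Fosl1 and Atf3 rose, whereas Fos, Egr1 and Egr2 fell. Fosb, Fosl2, Jun, Junb and Jund did not pass the test. A gene was called when edgeR's quasi-likelihood test gave a Benjamini-Hochberg adjusted p under 0.05 over all tested genes and a fold change over 2. By this rule 5 of the 10 genes were called, 2 higher and 3 lower, where 12.3% of all tested genes were called, 6.69% higher and 5.64% lower. The FPKM ranges of control and GOF libraries were apart for 7 genes, 2 higher and 5 lower in GOF, where this held for 39.5% of all tested genes, 20.3% higher and 19.2% lower. RNA of whole cultures was measured, so fewer cells expressing a gene and less RNA per cell cannot be told apart.

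**Figure D1:**
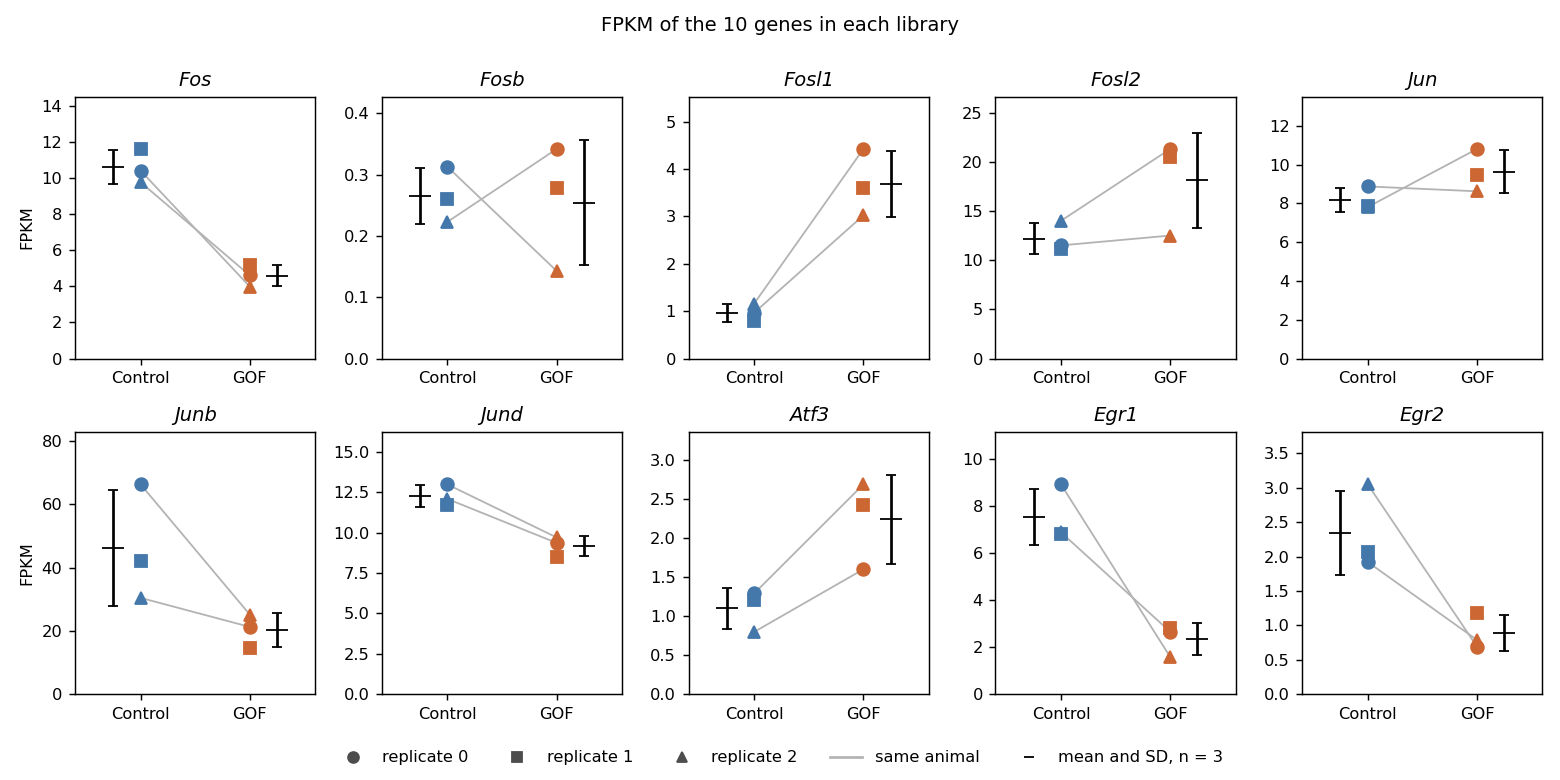
Levels of the 10 factors in FPKM on linear axes that start at 0 and differ between panels. Each point is a library (circle, square and triangle for replicates 0, 1 and 2), grey lines join cultures of the same animal, and bars give the mean and SD of 3 libraries. All GOF points lie above the control points for Fosl1 and Atf3 and below them for Fos, Junb, Jund, Egr1 and Egr2.

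The Fos genes encode the partners that mainly pair with a Jun protein. Fos itself (chr12:85473890-85477273, + strand, mm10; 4 exonic blocks), the founding immediate early gene, was measured at 10.4, 11.6 and 9.76 FPKM in control libraries 0, 1 and 2 and at 4.6, 5.16 and 3.98 FPKM in GOF libraries 0, 1 and 2. Each GOF library lay below every control. Fos fell by 1.14 on the log2 scale (SE 0.17, adjusted p = 0.00362), a 2.21-fold lower level on 333 to 974 fragments per library. Fos was called lower under all 15 alternative settings, with log2 fold changes from -1.23 to -1.04.

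Fosl1 (chr19:5447547-5455946, + strand) encodes Fra-1, a Fos protein that lacks the strong activation domain of Fos and typically accumulates later and for longer after stimulation. It moved in the direction opposite to Fos. The controls held 0.966, 0.781 and 1.16 FPKM and the GOF libraries 4.42, 3.6 and 3.02 FPKM, with no overlap. Its log2 fold change was 1.88 (SE 0.23, adjusted p = 0.00181), or 3.68-fold higher on 58 to 309 fragments per library. Fosl1 was called higher under all 15 alternatives, and its smallest value was 1.24. Ccdc85b on the other strand shares 1163 exonic bases with Fosl1, and it was measured at 2.52 to 6.08 FPKM in the controls and 1.52 to 2.62 FPKM in GOF (log2 fold change -1.15, SE 0.44, adjusted p = 0.108). The kit marks strand, but whether the counting used it is not given in the sources used here, so reads in that stretch could have been assigned to either gene.

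Fosl2 (chr5:32135801-32157842, + strand), which encodes Fra-2, was the most abundant Fos gene in GOF. Its controls held 11.5, 11.1 and 14 FPKM. The GOF libraries held 21.3, 20.5 and 12.5 FPKM. GOF 0 and GOF 1 were above every control and GOF 2 was inside the control range, so the groups overlapped. The log2 fold change of 0.55 (SE 0.21) did not pass the test (adjusted p = 0.1), and without GOF library 2 it was 0.76 with an adjusted p of 0.0128, still under a fold change of 2. That library came from the same animal as control 0, in which Fosl2 was at 11.5 FPKM.

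Fosb (chr7:19302696-19310051, - strand), another rapidly induced member, was barely present. The controls held 0.313, 0.26 and 0.223 FPKM and the GOF libraries 0.342, 0.278 and 0.143 FPKM. The lowest and the highest library were both GOF. These values rest on 20 to 45 fragments per library, and 20 fragments carry an exact 95% Poisson interval of 12.2 to 30.9 that covers counting error only. The highest GOF library held 45 fragments (32.8 to 60.2), so the GOF cultures differed from each other by more than these intervals. Fosb did not pass the test (log2 fold change -0.12, SE 0.37, adjusted p = 0.852).

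The Jun genes encode the main partners of the Fos proteins. Jun (chr4:95049034-95052222, - strand; a single exonic block), the main target of Jun N-terminal kinase, was measured at 8.87, 7.84 and 7.81 FPKM in the controls and at 10.8, 9.47 and 8.62 FPKM in GOF. Control 0 lay above GOF 2, so the groups overlapped. The log2 fold change was 0.20 (SE 0.14, adjusted p = 0.353), and it ranged from 0.12 to 0.28 over the alternatives. The antisense gene Junos shares 232 exonic bases with Jun on the other strand and was at 1.24 to 1.75 FPKM in the controls and 0.89 to 1.17 FPKM in GOF (adjusted p = 0.166).

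Junb (chr8:84974484-84978718, - strand), a weaker activator that can oppose Jun at some targets, had the highest mean of the 10 in both groups and the largest SD among controls. In GOF 0 and GOF 1, however, Fosl2 was above it. The control libraries held 66.3, 42.1 and 30.4 FPKM and the GOF libraries 21.2, 14.4 and 25.1 FPKM. All GOF values were below all control values. The log2 fold change was -1.24 (SE 0.38) on 638 to 3192 fragments, and the adjusted p of 0.0542 missed the threshold. Junb was called lower under 8 of the 15 alternatives, and its adjusted p ranged from 0.00573 with DESeq2 to 0.155. With the animal as a replicate block the log2 fold change was -0.92 (adjusted p = 0.0236), past the p threshold and short of a fold change of 2. That setting draws the group difference only from the 2 animals in both groups, so its p does not stand for all libraries. Prdx2 on the other strand shares 173 exonic bases with Junb and is more abundant, at 223 to 288 FPKM in the controls and 180 to 228 FPKM in GOF (log2 fold change -0.31, SE 0.16, adjusted p = 0.216).

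Jund (chr8:70698949-70700616, + strand; a single exonic block), the Jun gene usually expressed without stimulation, was at 13, 11.7 and 12.1 FPKM in the controls. GOF libraries held 9.37, 8.48 and 9.71 FPKM. The groups did not overlap. Its log2 fold change was -0.46 (SE 0.14, adjusted p = 0.0532), with adjusted p from 0.024 to 0.184 over the alternatives and a fold change never over 2. The antisense gene Gm11175 shares 877 exonic bases with Jund and was at 26.2 to 43.4 FPKM in the controls and 13.8 to 24.2 FPKM in GOF (log2 fold change -0.88, SE 0.37, adjusted p = 0.136), and reads of this pair could have been assigned to either gene.

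Atf3 (chr1:191170296-191218039, - strand) encodes a stress-induced partner of Jun that can repress transcription as a homodimer. Control libraries held 1.29, 1.21 and 0.796 FPKM and GOF libraries 1.6, 2.43 and 2.69 FPKM. The gap between the highest control and the lowest GOF library was smaller than the range of values within either group. Atf3 rose by 1.09 on the log2 scale (SE 0.29, adjusted p = 0.0337), or 2.12-fold higher on 77 to 262 fragments. This call was not stable. Atf3 was called under 8 of 15 alternatives, and its adjusted p was 0.119 with a block by label number and 0.108, 0.0985, 0.0933 and 0.0826 without control 1, control 2, GOF 1 and GOF 2.

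Egr1, a zinc finger immediate early factor, fell more than 3-fold. It was at 8.93, 6.82 and 6.89 FPKM in the controls and 2.65, 2.8 and 1.58 FPKM in GOF, with a wide gap between the groups. This was a log2 fold change of -1.75 (SE 0.25, adjusted p = 0.00331), or 3.37-fold lower on 188 to 967 fragments. It was called lower under all 15 alternatives (-1.97 to -1.37).

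Egr2 (chr10:67535475-67542188, + strand), best known for its role in Schwann cell myelination and also induced by serum, fell in GOF. The control libraries held 1.92, 2.06 and 3.05 FPKM, on 200, 261 and 284 fragments. GOF libraries held 0.689, 1.18 and 0.786 FPKM, on 84, 66 and 48 fragments. Every GOF library was below every control on both scales. The log2 fold change was -1.95 (SE 0.25, adjusted p = 0.00222), 3.86-fold lower on fragments, whereas the ratio of mean FPKM was 2.64. The number of fragments behind 1 FPKM of Egr2 ranged from 55.7 to 127 between libraries, so the scales disagreed on the size of the fall. It was called under 14 of 15 alternatives; with limma on log2(FPKM + 1) it was -0.82, short of a fold change of 2. Egr2 had a larger fitted fall than Egr1 on fragments, and the order turned on FPKM, where the ratio of means was 3.22 for Egr1. The 4 Schwann cell markers, given above, overlapped between the groups.

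**Figure D2:**
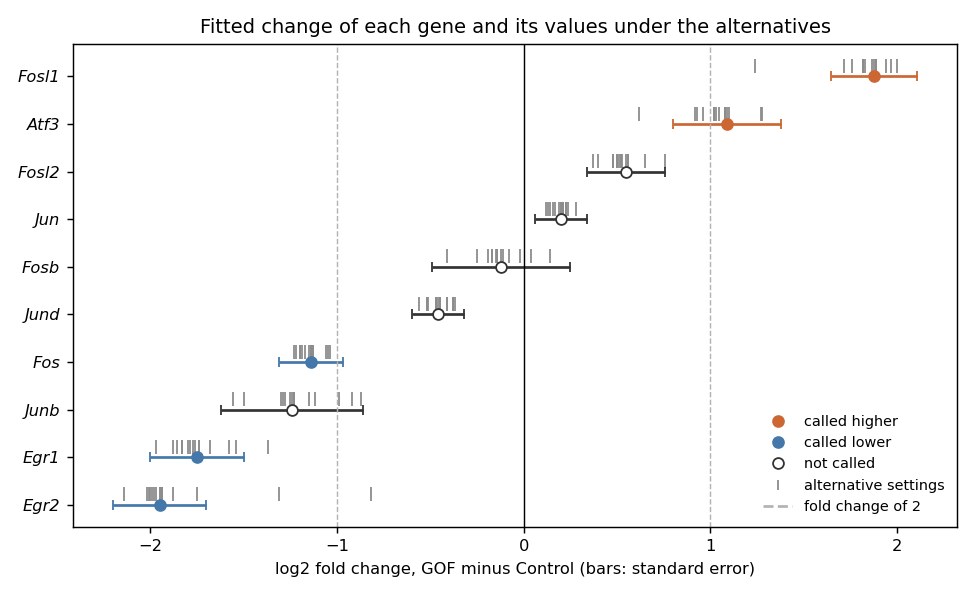
Fitted log2 fold change of each factor, GOF minus control (horizontal axis), with its standard error as a bar. Filled points are called higher (orange) or lower (blue), open points are not called, short grey ticks above each bar are the values under the alternatives, and dashed lines mark a fold change of 2. Fosl1 lies at 1.88, and Fos, Egr1 and Egr2 at -1.14, -1.75 and -1.95.

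On FPKM, an exact two-sided permutation test of 3 against 3 libraries cannot give a p under 0.1. It gave p = 0.1 for the 7 genes whose groups did not overlap, p = 0.2 for Fosl2 and for Jun, and p = 1 for Fosb by the same exact test. Within the pair of animals that gave both cultures, differences in log2(FPKM + 1) are a description without a test. From control 2 to GOF 0 and from control 0 to GOF 2 they were -0.94 and -1.20 for Fos, -1.11 and -1.94 for Egr1, -1.26 and -0.71 for Egr2, -0.50 and -1.37 for Junb, and -0.34 and -0.39 for Jund. The corresponding values were 1.33 and 1.03 for Fosl1, 0.53 and 0.69 for Atf3, and 0.57 and 0.11 for Fosl2. Jun (0.43 and -0.04) and Fosb (0.13 and -0.20) differed in sign between the animals.

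FPKM is per length, so the levels of different genes can be set side by side. Control means ran from Junb (46.3 ± 18.3 FPKM, SD, n = 3) through Jund (12.3 ± 0.702), Fosl2 (12.2 ± 1.56), Fos (10.6 ± 0.944), Jun (8.17 ± 0.603), Egr1 (7.55 ± 1.2), Egr2 (2.35 ± 0.616), Atf3 (1.1 ± 0.265) and Fosl1 (0.969 ± 0.19) to Fosb (0.265 ± 0.0456). Among these neighbours the libraries of Jund and Fosl2, Fosl2 and Fos, Jun and Egr1, and Atf3 and Fosl1 overlapped. GOF means ran from Junb (20.2 ± 5.45 FPKM, SD, n = 3) through Fosl2 (18.1 ± 4.87), Jun (9.64 ± 1.12), Jund (9.19 ± 0.631), Fos (4.58 ± 0.59), Fosl1 (3.68 ± 0.705), Egr1 (2.34 ± 0.664), Atf3 (2.24 ± 0.572) and Egr2 (0.887 ± 0.262) to Fosb (0.254 ± 0.102). Here the overlapping neighbours were Junb and Fosl2, Jun and Jund, Fos and Fosl1, and Egr1 and Atf3. Fosl1 thus lay far below Fos in every control library and overlapped the range of Fos in GOF.

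In the Fos family the groups overlapped in their summed level, whereas the shares of Fos, Fosl1 and Fosl2 did not overlap. The sum was 23.2, 23.7 and 25.1 FPKM in the controls and 30.7, 29.5 and 19.6 FPKM in GOF, a ratio of means of 1.11 with overlapping groups (exact permutation p = 0.4). Fos made up 44.2% ± 5.07 of that sum in the controls and 17.6% ± 2.63 in GOF (SD, n = 3). The share of Fosl1 was 4.03% ± 0.677 in the controls and 14% ± 1.64 in GOF, and that of Fosl2 50.6% ± 4.57 and 67.5% ± 3.35. For each of these 3 shares the groups did not overlap, and the exact permutation p was 0.1, the smallest possible. Shares of the same sum are tied to each other, so these are not 3 separate results. The FPKM of Fosl2 itself overlapped between groups. The share of Fosb, 1.11% and 0.929%, overlapped between groups (exact permutation p = 0.5). In single libraries, the ratio of Fosl1 to Fos lay between 0.0672 and 0.119 in the controls and between 0.697 and 0.96 in GOF, and that of Fosl2 to Fos between 0.954 and 1.43 and between 3.14 and 4.62.

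The Jun family sum was lower in GOF. It was 88.2, 61.6 and 50.4 FPKM in the controls and 41.4, 32.3 and 43.4 FPKM in GOF, without overlap and with a ratio of means of 0.585 (exact permutation p = 0.1). Junb made up 68% ± 7.38 of the sum in the controls and 51.2% ± 6.7 in GOF, and Jun 12.8% ± 2.72 and 25.1% ± 4.82 (SD, n = 3), each without overlap. The shares in this sum are tied too, and the FPKM of Jun itself overlapped between groups. The share of Jund overlapped between groups (19.3% ± 4.67 and 23.7% ± 2.19, exact permutation p = 0.3). The ratio of Jun to Junb lay between 0.134 and 0.256 in the controls and between 0.343 and 0.66 in GOF.

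**Figure D3:**
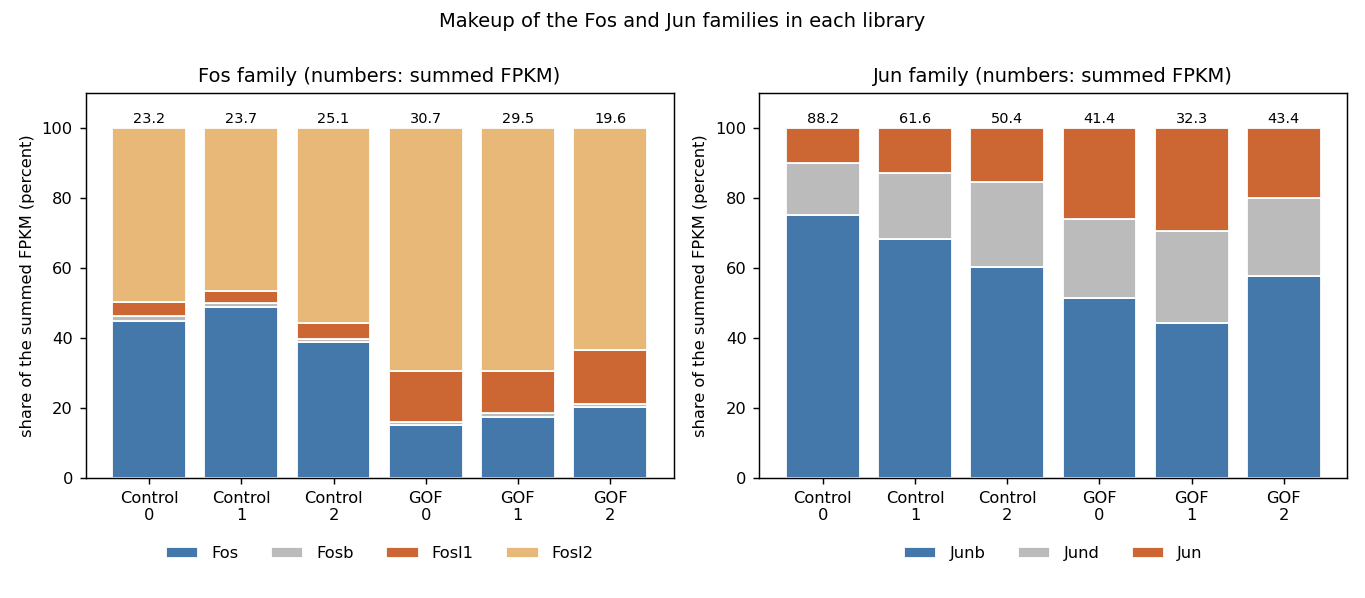
Share of each gene in the summed FPKM of the Fos family (left) and of the Jun family (right), in percent, 1 bar per library, with the summed FPKM above each bar. Fos takes 38.9% to 48.9% of the Fos family in the controls and 15% to 20.3% in GOF, and Junb takes 60.4% to 75.2% and 44.4% to 57.8% of the Jun family.

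The 6 lists of related genes were read from the same fit, beside a median log2 fold change of -0.02 over all tested genes. Together they held 142 genes, of which 135 were tested, 25 were called higher and 10 lower, where 6.69% of all tested genes were called higher and 5.64% lower. Upstream of the factors, 32 genes of the MAP kinase and SRF inputs were tested, and 3 were called higher and 1 lower, with a median of 0.19, a number of calls close to the 12.3% of all tested genes. The count of lower calls was 0 without GOF 0 and with limma on log2(FPKM + 1). Rps6ka2, a ribosomal S6 kinase downstream of ERK, rose from a mean of 4.72 to 16.1 FPKM (log2 fold change 1.74, adjusted p = 0.000684). Of the p38 kinase genes, Mapk13 was called higher (1.70, adjusted p = 0.00259) and Mapk11 lower (-1.28, adjusted p = 0.0111), while Mapk12 (-0.74, adjusted p = 0.0279) and Mapk14 (0.52, adjusted p = 0.0525), added after their values were seen, were not called. Map2k3, a kinase that activates p38, rose (1.17, adjusted p = 0.0166).

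Of the MAP kinase phosphatases and Sprouty brakes, which switch this signal off, 15 genes were tested, with a median of 0.49. Of these, 5 were called higher and 0 lower, where 6.69% and 5.64% of all tested genes were. At an unadjusted p under 0.05 the counts were 8 and 0, and DESeq2 also called 0 lower. With limma on log2(FPKM + 1), 2 were called higher. Dusp10 (log2 fold change 1.23, adjusted p = 0.00239), Dusp4 (1.44, adjusted p = 0.00456), Dusp9 (1.75, adjusted p = 0.00681) and Dusp14 (1.12, adjusted p = 0.00751) rose. The other gene called, Dusp5 (1.01, adjusted p = 0.0123), is named to complete the count. Dusp4 rose from a mean of 11.9 to 32.9 FPKM and was the most abundant of the 5. None of the Sprouty or Spred genes was called.

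The other immediate early genes moved in both directions, with more called higher than lower, whereas of the 10 factors fewer were called higher than lower. Of 42 tested, 8 were called higher and 4 lower, where 6.69% and 5.64% of all tested genes were. The median was 0.40. At an adjusted p under 0.05 alone the counts were 14 higher and 4 lower, and at an unadjusted p under 0.05 they were 20 and 6. The count of lower calls was 2 without control 1, GOF 0 or GOF 1, with a minimum FPKM of 1 and with the replicate block by label number, and that of higher calls was 4 with limma on log2(FPKM + 1). Ptgs2, the inducible cyclooxygenase, rose from 24.2 to 36.3 FPKM in the controls to 261 to 334 FPKM in GOF (log2 fold change 3.40, adjusted p = 0.000276). Phlda1 (1.65, adjusted p = 0.00326) and Csrnp1 (1.20, adjusted p = 0.00341) also rose. Ier2, a serum-induced nuclear protein, fell from 18.4 to 24.5 FPKM to 6.15 to 9.85 FPKM (-1.44, adjusted p = 0.0028).

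Nab2, a corepressor of Egr1 and Egr2 that Egr1 itself induces, fell together with them. It was measured at 27.2, 20.9 and 20.2 FPKM in the controls and 9.38, 10.2 and 9.23 FPKM in GOF (log2 fold change -1.32, adjusted p = 0.0015). Nab1 was the other gene of the Egr and Nab list that was tested, and its log2 fold change was -0.08 (adjusted p = 0.597). Egr3 and Egr4 did not pass the filter, with at most 10 and 3 fragments in any library. The count of this list was therefore 0 higher and 1 lower of 2 tested, with a median of -0.70; no gene was higher at an unadjusted p under 0.05 or with DESeq2.

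Of the other bZIP partners of AP-1, 1 was called higher and 2 lower of 23 tested, with a median of -0.01, again close to the 12.3% called over all tested genes. The count of lower calls was 1 without GOF 0 or GOF 1, and that of higher calls was 2 without control 0 or GOF 2, with DESeq2, with no filter on low counts and with the block by label number. Bach1 and Bach2, repressors that pair with small Maf proteins, moved in opposite directions: Bach1 fell from a mean of 18.1 to 7.49 FPKM (log2 fold change -1.26, adjusted p = 0.00176), and Bach2 rose from 0.579 to 2.23 FPKM (2.31, adjusted p = 0.00794). Cebpd, a C/EBP factor of the acute phase response, fell from 52.3 to 14.8 FPKM (-1.89, adjusted p = 0.0173).

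Textbook AP-1 target genes had the highest median of the 6 lists, 1.08. Of 23 tested, 10 were called higher and 2 lower, where 6.69% and 5.64% of all tested genes were. Whether AP-1 acted on these genes was not tested. Ptgs2, also a member of this list, is described above. Cd44, the hyaluronan receptor, rose from 68.7 to 72.1 FPKM in the controls to 184 to 187 FPKM in GOF (log2 fold change 1.39, adjusted p = 0.000452). The growth factor gene Ereg (1.73, adjusted p = 0.000664) and Plaur, the urokinase receptor (1.85, adjusted p = 0.00122), rose as well. The genes called lower were Fn1, which encodes fibronectin (-1.33, adjusted p = 0.0176), and the chemokine gene Ccl2 (-1.63, adjusted p = 0.048), both named to complete the count. The list's count of lower calls was 0 without GOF 1, and 1 without control 0, control 1, GOF 0 or GOF 2, with either limma setting, with a minimum FPKM of 1 and with the block by label number.

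**Figure D4:**
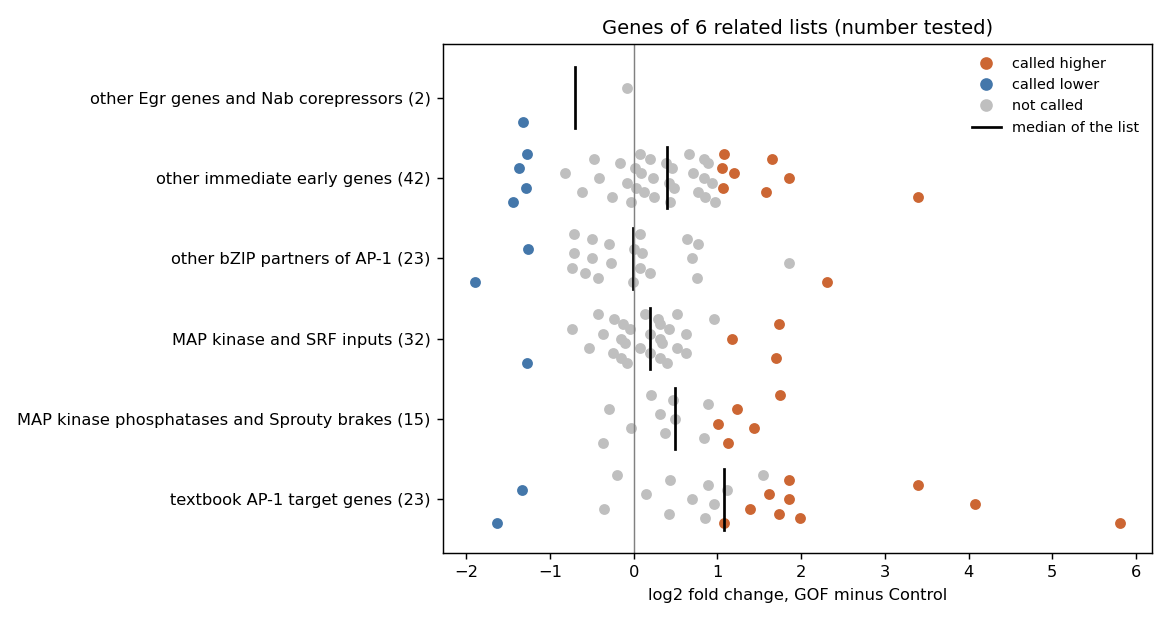
Log2 fold change, GOF minus control, of each tested gene in 6 lists related to the factors, with the number tested in brackets. Points are genes called higher (orange), called lower (blue) or not called (grey), placed at arbitrary heights within a list, and black lines are list medians, from -0.70 for the Egr and Nab list to 1.08 for the AP-1 targets.

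For each factor, the other genes whose log2(FPKM + 1) was most like it over the 6 libraries were read out among 12018 genes with a mean of at least 1 FPKM. With 6 libraries in 2 groups such a correlation largely follows the group difference where the groups are apart. The highest values were also picked from 12018 genes over 6 libraries, so a high r is no evidence of a link. They are given as a description. Pearson's r was 0.9988 for Dpf1 and 0.9976 for Pparg with Fos, and 0.9979 for Esrp2 and 0.9971 for Krt20 with Fosl1. With Egr1 it was 0.9941 for Loxl1 and 0.9940 for Ncapg2, and with Egr2 0.9969 for Acot1 and 0.9957 for Tbccd1. Crlf2 (0.9979) and Fbxw4 (0.9949) were nearest to Junb, Actr5 (0.9979) and Glt8d2 (0.9973) to Jund, and Pfdn2 (0.9928) and Minos1 (0.9794) to Jun. Otud6b (0.9965) and Thumpd3 (0.9929) were nearest to Atf3, Sfrp2 (0.9952) and Mboat7 (0.9934) to Fosl2, and Chchd6 (0.9623) and Slc35g2 (0.9616) to Fosb. None of the 10 was among the nearest genes of another.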

How the data were processed

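RNA was sequenced by the authors from stranded, paired-end libraries, and reads were mapped to mm10 with TopHat. The estimated counts are the fragments per gene and library that the authors' Cuffdiff run deposited before scaling. The deposited FPKM values are estimates per transcript length from the authors' Cuffdiff run, with the libraries scaled. They are not a fixed multiple of the fragments of a gene, as the values for Egr2 show. Tool versions and the strand setting of the counting are not given in the sources used here. Left out were 3 columns of per-library values and the lncRNA table, and 32 genes whose estimate failed. Symbols and positions came from GENCODE M21 (97.9% of 41126 identifiers matched) and promoters from RefSeq (GRCm38.p6).

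Estimated counts, not whole in 4.95% of values, were rounded and fitted over all 15462 genes passing filterByExpr with edgeR 4.0.16 in R 4.3.3 (TMM, quasi-likelihood test, Benjamini-Hochberg adjustment). Standard errors were derived from the F statistic. For a single FPKM value or share, libraries were compared by exact permutation (scipy 1.17.1). Replicates are separate cultures, some of them from the same animal. The fit, tested on simulated counts of the same libraries, called 174 of 192 genes changed by 2 on the log2 scale and 6 unchanged genes among 15219 tested. Smaller changes, such as those near a fold change of 2, were not simulated. The simulated libraries were drawn independently, without cultures that share an animal.

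Named are all 10 factors, up to 4 called genes of each list with the smallest adjusted p, the 2 genes most like each factor, genes overlapping a factor, and Axin2; genes beyond this rule are said to complete a count, or were chosen after their values were seen (Nab1, Egr3, Egr4, Mapk12 and Mapk14). The factors and lists were chosen with earlier results of these data known. Alternatives were DESeq2 1.42.0, library totals, upper quartile, all genes with any fragment, at least 1 FPKM in 3 libraries, limma 3.58.1 on log2(FPKM + 1) and log2(FPKM + 0.1), the label number as a replicate block, the animal as a replicate block, and leaving out any 1 library. Cultures of the same animal deviated together from their group means (correlations over genes 0.37 and 0.48). Those sharing only a label number did not (-0.42, 0.05 and -0.40). With the animal as a block, the group difference rests on the 2 animals in both groups alone.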

Additional observations from a re-analysis of the deposited data

How the results depend on the processing

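Fos, Fosl1 and Egr1 were called in the same direction under all 15 alternatives and Egr2 under 14. With limma on log2(FPKM + 1), 877 genes of the whole table were called (481 higher, 396 lower) in place of 1906, 16 genes of the related lists were called higher in place of 25, and 1 of the 10 factors was called higher in place of 2. That last count was also 1 with limma on log2(FPKM + 0.1) and with the replicate block by label number. With a minimum FPKM of 1, 639 genes of the table were higher and 632 lower in place of 1034 and 872, and library totals gave 977 and 945. Leaving out each library in turn gave 1311 to 1961 genes called, 742 to 1059 higher and 569 (without GOF 0) to 909 lower, 1 to 2 factors called higher, and 5 (without GOF 0 or GOF 1) to 9 related genes lower. Fosb, never called, ranged from -0.41 without GOF 0 and turned to 0.04 without control 0 and 0.14 without GOF 2. On raw fragments, which are not per length, the shares of Fos, Fosl1 and Fosl2 in their family changed by -14.3, 3.59 and 11 percentage points in place of -26.6, 9.97 and 16.8. The replicate block by animal, which rests on the 2 animals in both groups, moved Junb past the p threshold (adjusted p = 0.0236) and changed the call of no factor. The cause of these differences was not tested. Fosb rests on 20 to 45 fragments per library, and its GOF libraries differed beyond counting error.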
